A study of Mus musculus with 2 samples.

Results

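The Angptl7-Cilp2-Cnmd fibroblasts are cells from the mouse choroid, the vessel layer behind the retina, dissected with the retinal pigment epithelium (RPE), that were selected on their own transcript counts. Transcripts were counted as unique molecular identifiers (UMIs), each standing for 1 captured RNA molecule. A barcode was taken as a cell from 1000 UMIs and 500 detected genes upward, provided that mitochondrial genes gave no more than 20% of its UMIs. A cell was taken as a fibroblast when Col1a1, Col1a2, Col3a1, Dcn and Lum together gave 10 or more UMIs and Cdh5, Ptprc, Sox10, Higd1b and Myh11 together gave no more than 2. Each fibroblast went to the subset whose genes had the strictly largest summed count, if that sum reached 3 UMIs. The subset described here was summed over Angptl7, Cilp2 and Cnmd. The other 6 are named after their own genes: Ltbp2-Comp (with Cyp26a1), Kera-Thbs4, Pi16-Dpt (with Clec3b), Crabp2-Nrk (with Ephb1), Cxcl5-Csf3 (with Il11) and Tfpi2-Alpl (with Tcf21). The rule found 206 cells in library 1 and 194 in library 2, which makes 400 of 10664 fibroblasts and of 21898 cells.

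The series consisted of 1 group, wild-type mice of the ICR strain at 8 weeks of age, and no other genotype, treatment or time point was compared here. The dissected tissue was digested with collagenase for 2 h and with trypsin for 30 min and measured in 2 droplet libraries. Each library pooled 1 male and 1 female mouse, so animals and sexes cannot be told apart within it. The libraries held 91741168 and 149570817 UMIs, with 8497 and 13401 cells at medians of 7842 and 8253 UMIs per cell. Of the cell barcodes, 31 occurred in both libraries, and 0 of these were members. With 2 pools, the p-values below measure how far a difference between subsets repeated from pool to pool.

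Cartilage is built on collagen II fibrils and aggrecan, and it carries smaller matrix proteins that chondrocytes secrete around themselves. Cilp2 (cartilage intermediate layer protein 2), Matn4 (a matrilin, which links matrix fibrils) and Chad (chondroadherin, a leucine-rich protein that binds collagen and integrin) are such proteins, and Cnmd encodes chondromodulin, a protein of avascular cartilage that inhibits vessel growth. Angptl7 is a secreted angiopoietin-like protein known from the cornea and the aqueous outflow tissue, and human variants of its gene are associated with intraocular pressure. Tendon, in contrast, is built on collagen I fibrils with fibromodulin, and the transcription factors Scx and Mkx are known for their role in it.

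Promoter sequences are shown for the marker genes, of which Angptl7 and Cnmd took part in the selection and Matn4 and Chad did not. RefSeq windows on GRCm38.p6 were found for all 5 markers, and the 250 bases before the annotated start are shown for the 4 genes whose GENCODE transcripts begin at or after that start. They lie at chr4:148500463-148500712 (minus strand, Angptl7), chr14:79662184-79662433 (minus strand, Cnmd), chr2:164405161-164405410 (minus strand, Matn4) and chr11:94564797-94565046 (plus strand, Chad). Each is written 5′ to 3′ on the strand of its gene, and capitals mark matches to short motifs searched on both strands.
Angptl7: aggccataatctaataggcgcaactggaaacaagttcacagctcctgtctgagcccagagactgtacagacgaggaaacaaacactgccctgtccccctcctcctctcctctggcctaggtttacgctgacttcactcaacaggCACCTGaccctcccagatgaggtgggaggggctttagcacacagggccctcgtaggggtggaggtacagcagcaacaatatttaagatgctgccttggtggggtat
Cnmd: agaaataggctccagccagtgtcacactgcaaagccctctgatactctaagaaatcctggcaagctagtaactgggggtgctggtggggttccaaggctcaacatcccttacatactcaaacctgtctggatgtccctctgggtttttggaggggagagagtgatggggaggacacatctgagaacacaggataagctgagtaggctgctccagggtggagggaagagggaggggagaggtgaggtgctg
Matn4: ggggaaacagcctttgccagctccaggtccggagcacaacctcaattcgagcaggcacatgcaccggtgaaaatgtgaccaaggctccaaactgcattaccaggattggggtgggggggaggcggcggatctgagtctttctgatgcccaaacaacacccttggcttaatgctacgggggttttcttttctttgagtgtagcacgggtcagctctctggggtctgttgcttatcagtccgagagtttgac
Chad: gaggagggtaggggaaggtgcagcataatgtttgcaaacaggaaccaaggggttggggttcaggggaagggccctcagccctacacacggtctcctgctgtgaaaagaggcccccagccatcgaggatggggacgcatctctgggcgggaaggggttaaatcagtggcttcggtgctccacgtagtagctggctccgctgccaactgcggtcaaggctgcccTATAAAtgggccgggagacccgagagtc
The Chad window held TATAAA, the letters of a TATA box, 28 to 23 bases before the start, and 12.4% of 32817 mouse promoter windows of this length hold these letters. The Angptl7 window held CACCTG, which was searched together with CAGCTG as letters of an E-box, and 27.7% of all windows hold one of them. In 0 of the 4 windows were the SOX letters ACAATG or ACAAAG found (25.2% of all windows), the RUNX letters TGTGGT (14%) or the AP-1 letters TGACTCA or TGAGTCA (4.46%). The Cnmd window held 0 CpG and the Chad window 10, against a median of 6 over all windows. These matches describe letters only, and binding was not measured.

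The selected cells made up 4.93% of the fibroblasts of library 1 (exact Clopper-Pearson 95% interval 4.29% to 5.63%) and 2.99% of those of library 2 (2.59% to 3.43%). The intervals cover counting error only and do not overlap. Members had medians of 12218 and 12326 UMIs, between those of the Kera-Thbs4 fibroblasts (8145 and 8805) and the Ltbp2-Comp fibroblasts (13802.5 and 13642). Their sums over Angptl7, Cilp2 and Cnmd ran from 3 to 143 UMIs with a median of 18 in library 1, and from 3 to 174 with a median of 20 in library 2. Cilp2 was seen in 97.1% and 94.8% of members, Angptl7 in 72.3% and 74.7%, and Cnmd in 48.5% and 42.8%. All 3 genes were seen together in 32.0% and 27.3%. These values chose the cells and are given as a description.

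The boundary towards other fibroblasts was narrow for some members. In 36 and 37 cells (17.5% and 19.1%) the sum led that of the next subset by 1 or 2 UMIs, and 5 and 4 cells stood at the minimum of 3. The next subset was Ltbp2-Comp for 104 and 103 members and Kera-Thbs4 for 57 and 55. Just outside the rule, 9 and 5 fibroblasts led with 1 or 2 UMIs and 13 and 12 were tied at 3 or more. A further 440 and 660 fibroblasts reached 3 UMIs but had a larger sum for another subset, among them 35.3% and 31.5% of Ltbp2-Comp cells and 44.1% of Kera-Thbs4 cells in each library. When every cell was thinned to 2000 UMIs before gating, 43.1% of the 204 members deep enough in library 1 and 53.9% of the 193 in library 2 were selected again.

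In CPM (counts scaled to a library of 1000000), Angptl7 stood at 1024 and 1021 in the members of libraries 1 and 2, against 0.502 to 229 in the other subsets. Cilp2 stood at 930.1 and 907 CPM, against 1.67 to 376 elsewhere. Cnmd stood at 257 and 239 CPM, against 0 to 12.3 elsewhere. These 3 genes chose the members, whereas Matn4 and Chad took no part in the selection and could be tested. Both were listed as markers with earlier results of these data known, so their tests are not independent of that choice. Matn4 had 701 and 826 CPM in the members, 209.8 and 171 in Kera-Thbs4 fibroblasts, 138 and 136 in Ltbp2-Comp fibroblasts and 6.16 to 121 in the remaining 4 subsets. It was higher by 3.76 on the log2 scale than the mean of the other subsets (SE 0.158, edgeR quasi-likelihood adjusted p = 4.95e-07) and by 2.48 than Ltbp2-Comp fibroblasts (SE 0.254, adjusted p = 3.76e-04). Chad had 1478 and 1170.3 CPM in the members and 1225 and 917 in Ltbp2-Comp fibroblasts. It was higher by 2.83 than the mean of the other subsets (SE 0.108, adjusted p = 1.25e-08), while the log2 difference of 0.31 from Ltbp2-Comp fibroblasts did not pass the test (SE 0.167, adjusted p = 0.236). Matn4 thus lay above all 6 other subsets in both libraries, and no difference in Chad from the Ltbp2-Comp cells was called. On GRCm38 the genes lie on chromosomes 4 (Angptl7, 148495183 to 148500460), 8 (Cilp2, 69880369 to 69887687), 14 (Cnmd, 79637690 to 79662170), 2 (Matn4, 164389393 to 164405160) and 11 (Chad, 94565047 to 94569127).

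**Figure D1:**
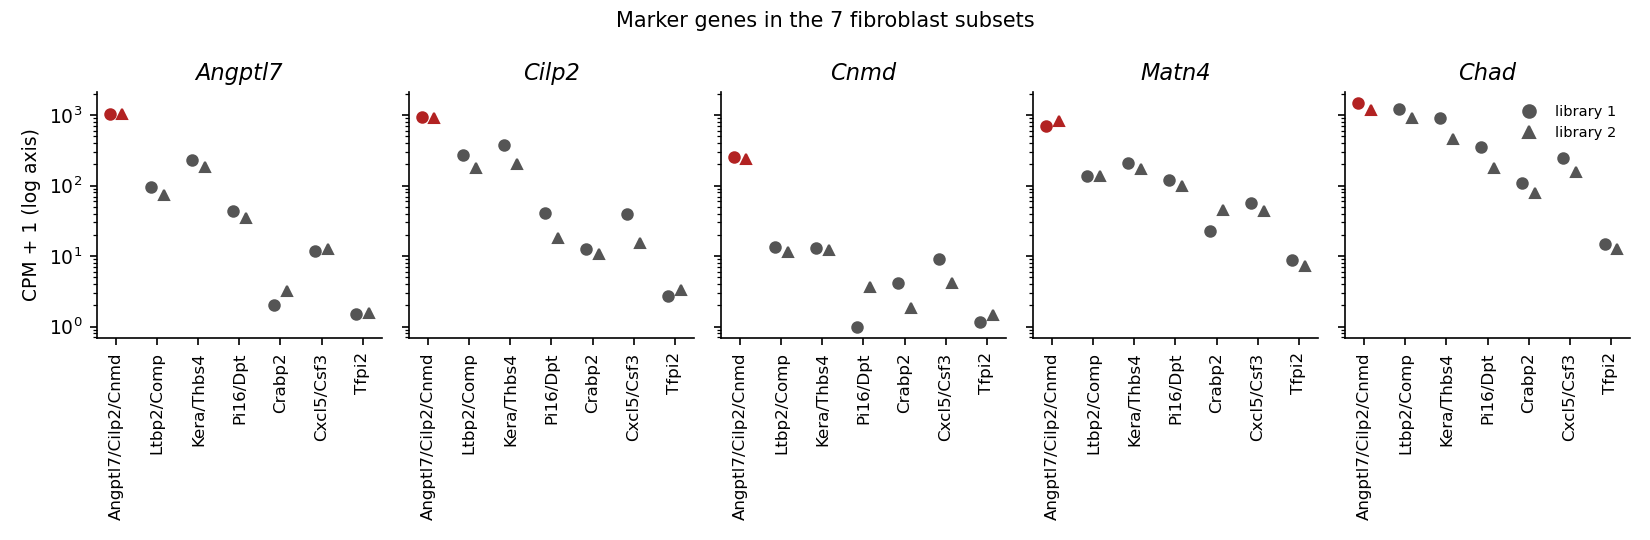
CPM + 1 on a log axis for the 5 marker genes in the 7 fibroblast subsets, with circles for library 1 and triangles for library 2. Angptl7, Cilp2 and Cnmd chose the cells. Matn4 in the members (701 and 826 CPM) lies above every other subset, and Chad in Ltbp2-Comp fibroblasts (1225 and 917 CPM) lies close to the members (1478 and 1170.3 CPM).

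A low level of these genes was also seen in cells of other kinds. Leukocytes, at medians of 9007 and 9165 UMIs, had an Angptl7 UMI in 1.61% and 1.71% of cells and a Matn4 UMI in 4.44% and 4.40%. Members had a Matn4 UMI in 93.2% and 97.4% of cells. With each cell thinned to 2000 UMIs, which left out 2 and 1 members, the Matn4 shares were 63.2% and 72.0% in members, 18.5% and 18.5% in Ltbp2-Comp fibroblasts and 1.22% and 0.873% in leukocytes. The share in members was above that in leukocytes in both libraries.

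Nearest neighbours were computed without the 30 genes of the gates, to describe how the members lie on other variable genes. Of the 15 nearest neighbours of a member, 44.7% and 42.9% on average were members, who made up 2.86% and 2.02% of the neighbours of other fibroblasts. A further 35.2% and 38.2% were Ltbp2-Comp fibroblasts, 6.70% and 7.63% Kera-Thbs4 fibroblasts and 0.162% and 0.550% Tfpi2-Alpl fibroblasts. A pair of clusters made on the same genes held 42.7% and 43.7% of the members of library 1 and 49.5% and 35.6% of those of library 2. Members were 32.3% to 40.7% of the cells in these clusters, so they lay together but did not form a cluster of their own.

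**Figure D2:**
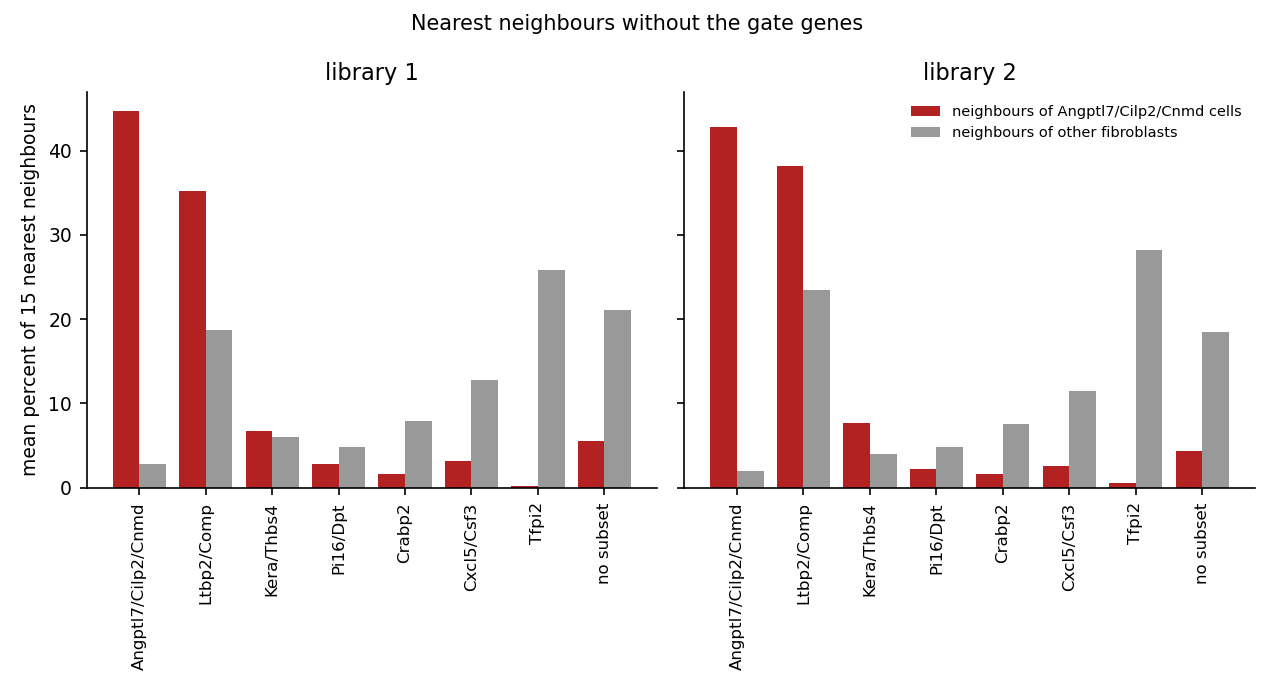
Mean percent of the 15 nearest neighbours that fall in each subset (bars from 0), for members and for other fibroblasts, with 1 panel per library. Members have 44.7% and 42.9% members among their neighbours, followed by Ltbp2-Comp fibroblasts with 35.2% and 38.2%.

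Of the 8 defining markers of chondrocytes, Sox9 was at a moderate level in the members and the matrix genes were low. Col2a1, the collagen of hyaline cartilage, gave 9 and 20 UMIs over all members, or 3.75 and 8.36 CPM. Acan (aggrecan) gave 7.91 and 6.69 CPM and Col11a2, a minor fibril collagen, 17.1 and 17.1. Col9a1, Matn1, Matn3 and Hapln1, which encode further cartilage matrix proteins, had 0 to 6 UMIs in a library and were too sparse to test. Sox9, the chondrocyte transcription factor, had 177 and 124 CPM in members and 133 to 400.3 in other subsets, and its log2 difference of -0.76 was under the size needed for a call. Summed over the 8 defining markers, members had 208 and 159 CPM, at the lower end of the other subsets (208 to 406 in library 1 and 139 to 388 in library 2). Col2a1, Acan and Col11a2 did pass the edgeR test against the mean of the other subsets, at log2 differences of 2.35, 1.65 and 1.64. All 3 calls were lost against all other fibroblasts pooled, and Kera-Thbs4 fibroblasts had more Col2a1 (28.0 and 26.0 CPM) and Col11a2 (129.8 and 92.7 CPM) than the members. Acan had 9.75 and 15.2 CPM in Ltbp2-Comp fibroblasts, and the members' log2 difference of -0.80 from them did not pass the edgeR test (adjusted p = 0.169). The cells are therefore named by their genes and not as cartilage cells.

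Markers of other eye cells were unevenly spread over the members. In library 1, 1 member held 517 of the 525 UMIs of surface epithelium markers, and in library 2, 1 member held 1198 of the 1526 UMIs of RPE markers. RPE markers summed to 39.6 and 638 CPM in members, against 838 to 2238 and 426 to 11054 in the other subsets of libraries 1 and 2. Other sums were less concentrated: the highest member held 11 of the 95 RPE marker UMIs in library 1, and 1167 of 2224 and 707 of 1865 melanocyte marker UMIs. Melanocyte markers summed to 926 and 779 CPM, within the range of the other subsets. Endothelial markers (7.08 and 11.7 CPM) and photoreceptor markers (4.17 and 5.01 CPM) were below every other subset of the same library. Ciliary epithelium markers summed to 6850 and 4495 CPM in members, above every other subset of the same library. The next highest were the Ltbp2-Comp fibroblasts at 4736 and 2622 CPM. Of the 4 ciliary markers tested, Cryab was called higher than the mean of the other subsets, and 0 were called higher than in Ltbp2-Comp fibroblasts. Scrublet called 5 and 9 members as doublets. In an alternative fit, cells that had 3 or more UMIs of RPE, melanocyte, photoreceptor or epithelial markers were left out, which took out 21 and 83 members. Of the 11156 genes tested in that fit, 828 were higher and 823 lower than the mean of the other subsets.

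Compared with the mean of the other 6 subsets, each counted equally, 776 genes were higher in the Angptl7-Cilp2-Cnmd fibroblasts, 6.31% of the 12305 tested by edgeR, and 806 were lower, 6.55%. A gene was called at an adjusted p below 0.05 with a log2 difference of at least 1, and the 30 genes of the gates were left out. The mean was taken on the log scale, so a gene could be called higher while some subsets lay above the members. By correlation of log2 CPM across genes, the members were most like the Ltbp2-Comp fibroblasts (r = 0.965) and next the Kera-Thbs4 fibroblasts (r = 0.952), and least like the Tfpi2-Alpl fibroblasts (r = 0.849). Against the Ltbp2-Comp fibroblasts, 333 genes were higher (2.71%) and 412 lower (3.35%). Against the Kera-Thbs4 fibroblasts, 357 were higher (2.90%) and 450 lower (3.66%). In all, 71 genes (0.577%) were higher in the members than in each of the other 6 subsets, and 66 (0.536%) were lower than in each. The comparisons share the members' sums. The median log2 difference over all genes tested was 0.0046, so the lists below are read against a median near 0. Counts of higher and lower genes in a list are likewise read against the shares of 6.31% and 6.55% over all genes tested.

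**Figure D3:**
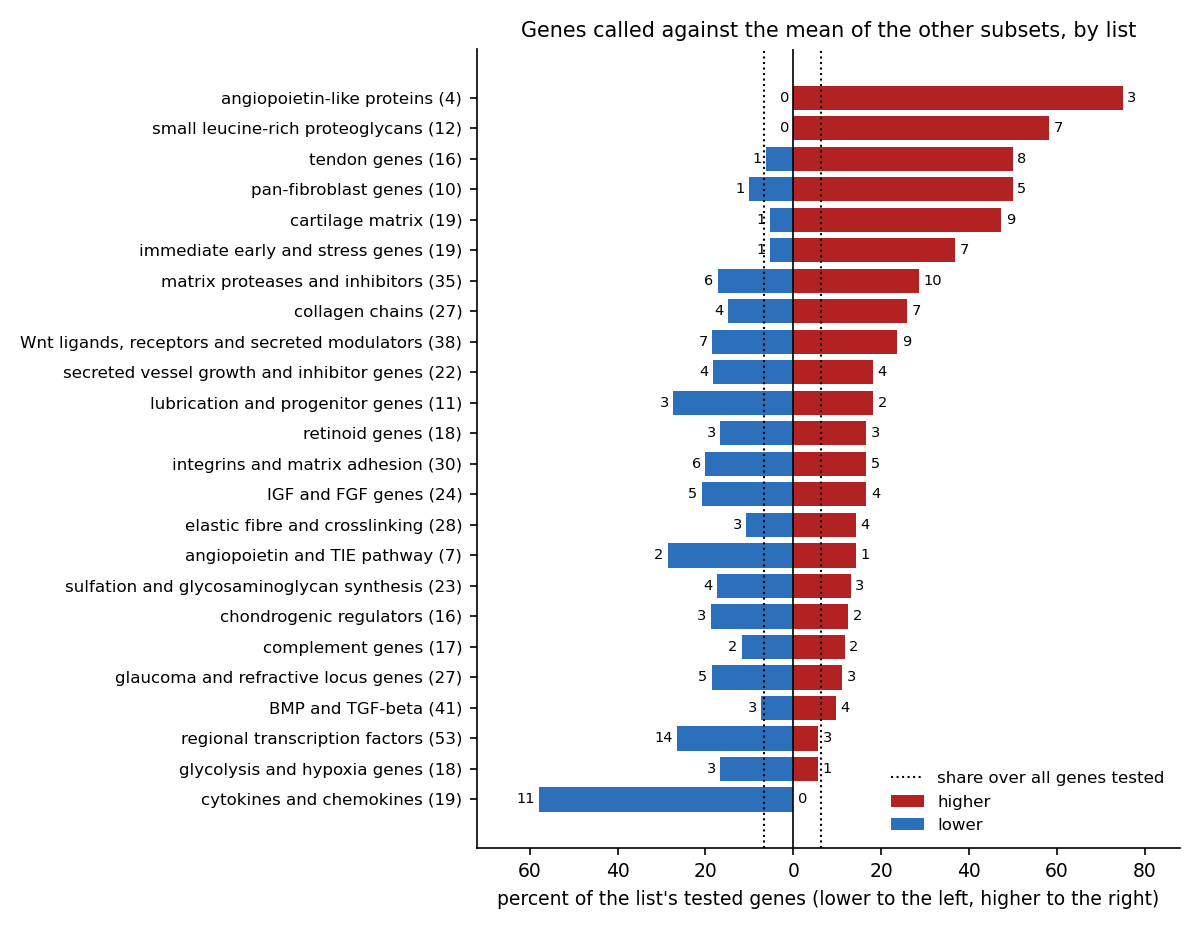
Percent of the tested genes of each of 24 gene lists that were higher or lower in the members than the mean of the other subsets, with dotted lines at the share over all genes tested (6.31% and 6.55%). Small leucine-rich proteoglycans have 7 of 12 higher, and cytokines and chemokines have 11 of 19 lower.

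Cartilage matrix genes were often higher, with 9 higher and 1 lower of 19 tested and a median log2 difference of 0.94. Among the 9 are Matn4 and Chad, which were listed as markers with earlier results of these data known. The others were Hapln3, Col2a1, Mia, Acan, Col11a2, Col11a1 and Crispld1. The calls of Col2a1, Acan and Col11a2 were lost against all other fibroblasts pooled. Hapln3, a link protein that holds hyaluronan to proteoglycan, had 9.16 and 9.61 CPM in members and 0.814 to 4.0 elsewhere, a log2 difference of 2.54 (SE 0.302, adjusted p = 1.45e-05). Col11a1, a collagen of thin fibrils, had 441 and 633 CPM in members and 320.1 and 496 in Ltbp2-Comp fibroblasts, and the latter difference of 0.41 did not pass the test (adjusted p = 0.0871). The lower gene was Cytl1, a cytokine-like protein known from cartilage, with 0 UMIs in both libraries of members and 1.78 to 35.5 CPM elsewhere. Against a floor of 3 UMIs over both libraries it was at least 18.9-fold lower than the mean CPM of the other subsets. The call was lost when cells were thinned before gating. Of 16 chondrogenic regulators tested, Nfatc2 and Pth1r were higher and Fgfr3, Mef2c and Foxc1 lower. Nfatc2, a calcium-regulated transcription factor, had 84.1 and 159 CPM in members and 6.47 to 80.4 elsewhere, a log2 difference of 2.79 (SE 0.246, adjusted p = 4.54e-05). Both libraries of members lay above all other sums for Nfatc2. Col10a1, the collagen of hypertrophic cartilage, gave 2 and 3 UMIs in members and 0.444 to 120.4 CPM elsewhere, and was lower at a log2 difference of -4.62.

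Tendon genes were higher in 8 and lower in 1 of 16 tested, with a median log2 difference of 1.14. Scx, the transcription factor of tendon progenitors, had 93.3 and 63.9 CPM in members, 122 and 88.7 in Kera-Thbs4 fibroblasts and 53.2 and 36.6 in Ltbp2-Comp fibroblasts, and was higher by 2.68 than the mean of the other subsets (SE 0.185, adjusted p = 5.06e-07). Mkx, another factor of tendon, had 49.1 and 73.5 CPM in members and 66.7 and 85.5 in Kera-Thbs4 fibroblasts. Tnmd (tenomodulin), the tendon relative of chondromodulin, had 739 and 826 CPM in members but 1266 and 1199 in Ltbp2-Comp and 1419 and 973 in Kera-Thbs4 fibroblasts. These 3 genes were therefore higher than the mean of the other subsets without being highest in the members. Abi3bp, a secreted matrix protein, had 1270.3 and 1539.7 CPM in members and 476 and 440.1 in Ltbp2-Comp fibroblasts, a log2 difference of 1.61 (SE 0.165, adjusted p = 8.83e-05). Ptx4, a pentraxin, had 20.4 and 40.9 CPM in members and 98.7 and 92.4 in Kera-Thbs4 fibroblasts. Tppp3, known as a marker of tendon sheath cells, was the lower gene, with 22.5 and 7.10 CPM in members and 26.8 to 381 elsewhere.

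Small leucine-rich proteoglycans, which bind collagen fibrils, were higher in 7 and lower in 0 of 12 tested, with a median log2 difference of 1.48. At an unadjusted p under 0.05 edgeR gave 11 higher and 0 lower, and DESeq2 called 7 higher and 0 lower. Fmod (fibromodulin) had 3526 and 4279.7 CPM in members, 3714 and 2568 in Kera-Thbs4 and 2224 and 2286 in Ltbp2-Comp fibroblasts. It was higher by 2.85 than the mean of the others (SE 0.309, adjusted p = 6.09e-04), and neither difference from these 2 subsets passed the test. Ogn (osteoglycin) had 1504 and 1797 CPM in members and 188 to 1045 in all other subsets, so the groups did not overlap. Omd (osteomodulin) had 270.3 and 367 CPM in members and 9.71 to 255 elsewhere, a log2 difference of 2.21 (SE 0.119, adjusted p = 9.10e-08). Chad, Ecm2, Prelp and Podn were the other higher members of this list. Dcn (decorin), a gate gene given as a description, stood at 41739.8 and 40881 CPM in members and 3853 to 27512 in other subsets.

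**Figure D4:**
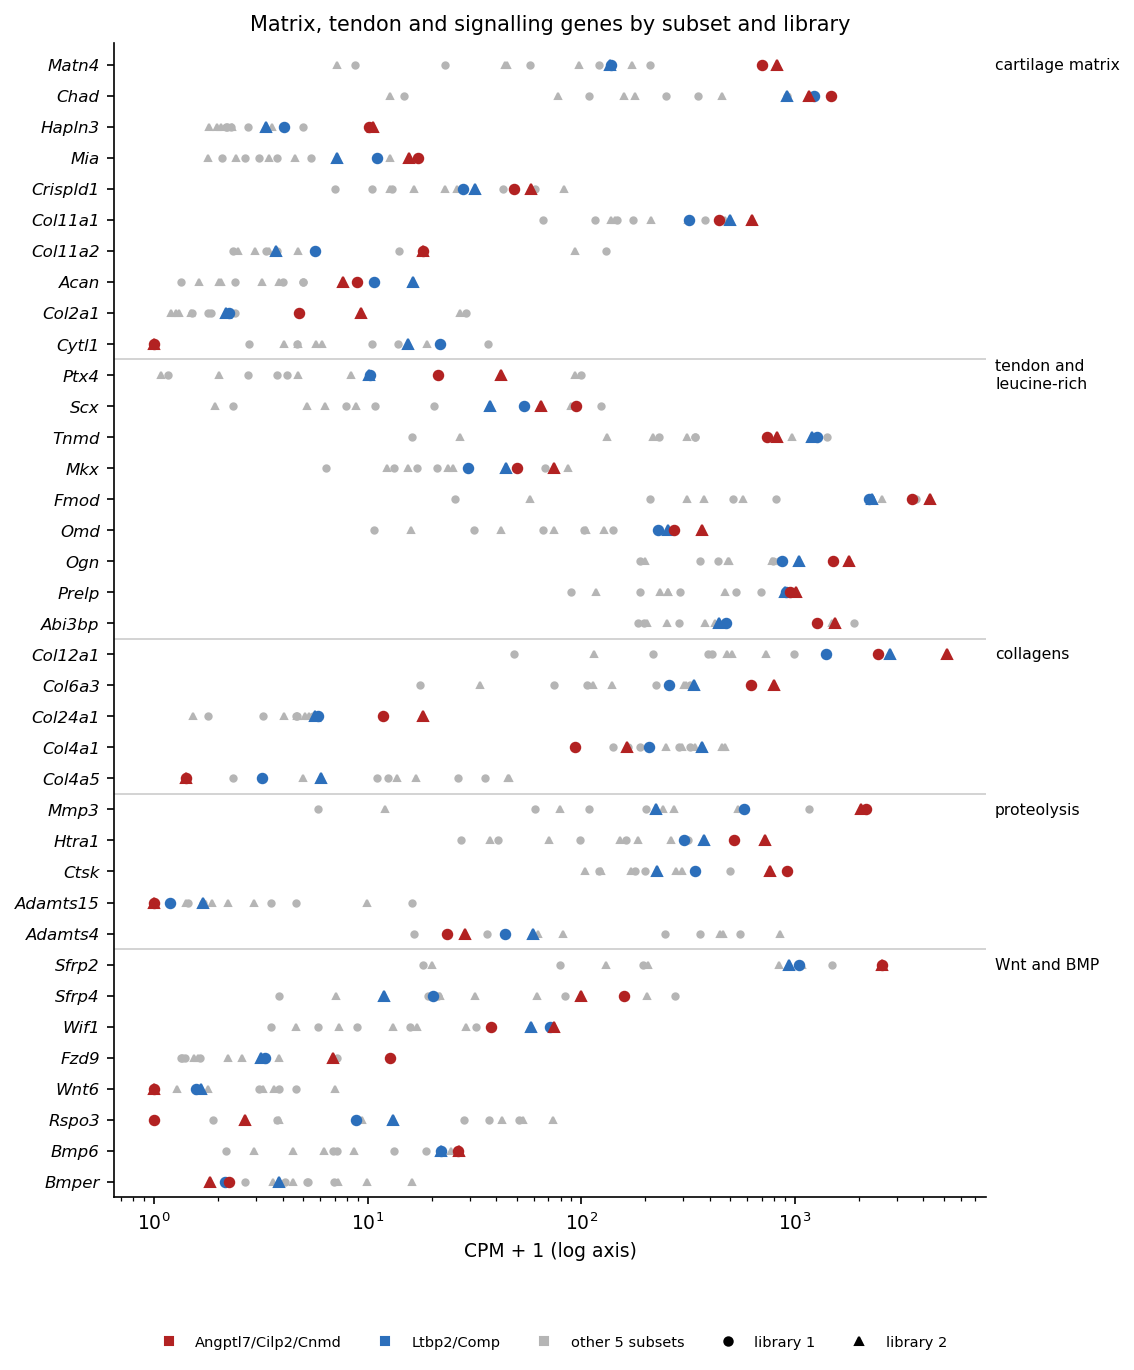
CPM + 1 on a log axis for matrix, tendon and signalling genes, 1 row per gene, with members in red, Ltbp2-Comp fibroblasts in blue and the other 5 subsets in grey, circles for library 1 and triangles for library 2. Ogn in the members (1504 and 1797 CPM) lies to the right of all other sums, and Tnmd (739 and 826 CPM) does not.

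Of 27 collagen chains tested, 7 were higher and 4 lower. Col12a1, a collagen on the surface of collagen I fibrils, had 2462 and 5145 CPM in members and 1396 and 2777 in Ltbp2-Comp fibroblasts, and was higher than the mean of the others by 2.86 (SE 0.121, adjusted p = 2.00e-07). Within each library the members had the highest value. Col6a3, a chain of the microfibrils around cells, had 624 and 800.1 CPM in members and 16.6 to 338 elsewhere, and was higher than in each other subset. Of the lower chains, Col4a1, Col4a5 and Col4a6 belong to basement membranes, and the other was Col23a1. Col4a1 had 92.5 and 163 CPM in members and 207 and 367 in Ltbp2-Comp fibroblasts, a log2 difference of -1.17 (SE 0.114, adjusted p = 1.30e-05). Elastic fibre and crosslinking genes had 4 higher and 3 lower of 28. Among 10 pan-fibroblast genes 5 were higher, with Sparc, a collagen-binding matrix protein, at 19886 and 17122 CPM against 1625 to 12168. The platelet-derived growth factor receptor Pdgfra was lower, with 95 and 135 CPM against 233 and 289 in Ltbp2-Comp fibroblasts.

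Matrix proteases and inhibitors were higher in 10 and lower in 6 of 35 tested. Mmp3 (stromelysin, which cleaves proteoglycans) had 2143 and 2048 CPM in members, 576 and 224 in Ltbp2-Comp and 1168 and 240.0 in Kera-Thbs4 fibroblasts. It was higher by 3.79 than the mean of the others (SE 0.582, adjusted p = 0.00319), but the difference of 2.39 from Ltbp2-Comp fibroblasts had an SE of 0.981 and did not pass (adjusted p = 0.165). Ctsk (cathepsin K, which degrades fibrillar collagen) had 917 and 763 CPM in members and 103 to 496 elsewhere, and was higher than in each other subset. Serpine2, an inhibitor of thrombin and plasminogen activators, had 584 and 579 CPM in members and 2206 and 2539 in Ltbp2-Comp fibroblasts, a log2 difference of -2.03 (SE 0.133, adjusted p = 1.21e-06). Among 23 genes of sulfation and glycosaminoglycan synthesis, 3 were higher and 4 lower. The lower ones included the hyaluronan synthases Has1 and Has2. Has2 gave 2 and 1 UMIs in members and 9.73 to 91.0 CPM in other subsets, a log2 difference of -5.91 (SE 0.304, adjusted p = 5.69e-09). Has1 had 29.6 and 17.5 CPM in members and 41.0 to 905 elsewhere, so for both genes the members lay below all other sums.

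Angiopoietin-like genes outside the gate were higher in 3 and lower in 0 of 4 tested, and at an unadjusted p under 0.05 edgeR gave 3 higher and 1 lower, while DESeq2 called 3 and 0. Angptl1 had 72.9 and 66.0 CPM in members and 15.5 and 14 in Ltbp2-Comp fibroblasts. Kera-Thbs4 fibroblasts had 270.2 and 186 CPM and Pi16-Dpt fibroblasts 135 and 154. Members were lower in Angptl1 than both of these subsets by edgeR, at log2 differences of -1.70 and -1.07. Angptl2 had 59.6 and 74.4 CPM in members and 11.9 to 73.8 elsewhere, and Angptl6 8.33 and 2.92 CPM. None of the 3 calls held under every alternative: Angptl1 was lost with thinning (log2 difference 0.76) and against all other fibroblasts pooled (0.97), Angptl2 with the stricter lead (0.80), and Angptl6 under all 3 of these settings. Angptl4, which inhibits lipoprotein lipase, was not called at -0.54. Angiopoietins regulate vessel stability through the receptor TIE2, and of 7 genes of this pathway tested 1 was higher and 2 lower. Svep1, a large matrix protein of lymphatic and vessel development, had 209 and 318 CPM in members and 236 and 301 in Ltbp2-Comp fibroblasts. Its log2 difference was 1.5 from the mean of the other subsets (SE 0.108, adjusted p = 3.14e-07) and -0.04 from Ltbp2-Comp fibroblasts (SE 0.148, adjusted p = 0.892), and the call was lost against all other fibroblasts pooled (0.97). Angpt1, the agonist ligand of TIE2, had 70.0 and 107 CPM in members, 273 and 387 in Ltbp2-Comp, 392 and 587 in Crabp2-Nrk and 49.3 and 111 in Kera-Thbs4 fibroblasts. It was lower at a log2 difference of -1.48 from the mean of the others (SE 0.13, adjusted p = 1.33e-06) and -1.91 from Ltbp2-Comp fibroblasts (SE 0.152, adjusted p = 3.19e-06). The other ligand called, Angpt2, gave 0 and 1 UMIs, and Tek, Tie1, Angpt4 and Ptprb gave 0 to 9 UMIs in a library and were not called against the mean of the others. Ptprb, a phosphatase that acts on TIE2, was lower than in Ltbp2-Comp fibroblasts at a log2 difference of -1.96 (SE 0.394, adjusted p = 0.00354), a call that was lost without the replicate block.

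Secreted genes that act on vessels were higher in 4 and lower in 4 of 22 tested. Sema3a, a guidance factor, had 52.9 and 71.9 CPM in members and 9.28 and 8.77 in Ltbp2-Comp fibroblasts, a log2 difference of 2.79 (SE 0.20, adjusted p = 1.06e-06). Serpinf1 (pigment epithelium-derived factor, an inhibitor of vessel growth) had 7246 and 4478 CPM in members, the highest of the 7 subsets within each library. Pgf (placental growth factor) was lower, with 6.25 and 34.3 CPM in members and 16.0 to 335 elsewhere. Sparcl1, Cxcl12 and Ntn1 were lower as well. Vegfa, the main endothelial growth factor, had 114 and 118 CPM against 123 to 318, and its log2 difference of -0.80 was under the size needed for a call.

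Wnt genes were higher in 9 and lower in 7 of 38 tested. Sfrp2, a secreted Wnt-binding protein, had 2574 and 2558 CPM in members and 17.2 to 1501 in other subsets, a log2 difference of 3.20 (SE 0.145, adjusted p = 8.80e-07). Its relative Sfrp4 had 157 and 99.0 CPM in members, 19.2 and 11 in Ltbp2-Comp and 274 and 202 in Pi16-Dpt fibroblasts, and its call against the mean of the others was lost when cells were thinned before gating (0.88). Rspo3, an activator of Wnt signalling, gave 0 and 4 UMIs in members and 0.889 to 72.6 CPM elsewhere. Wnt5a had 13.3 and 16.7 CPM in members and 56.4 and 66.6 in Ltbp2-Comp fibroblasts, a log2 difference of -2.03 (SE 0.190, adjusted p = 8.63e-06). In the BMP and TGF-beta list 4 of 41 were higher and 3 lower, against 6.31% and 6.55% over all genes tested. Bmp6, a ligand, had 25.4 and 25.9 CPM in members and 1.17 to 23.5 elsewhere. By edgeR it was not called against Ltbp2-Comp (log2 difference 0.28, adjusted p = 0.437) or Kera-Thbs4 fibroblasts (0.29, adjusted p = 0.486). Among 24 IGF and FGF genes 4 were higher and 5 lower. Igfbp6, an IGF-binding protein with a preference for IGF2, had 5384 and 3425 CPM in members and 2431 and 1436 in Ltbp2-Comp fibroblasts, a log2 difference of 1.20 (adjusted p = 0.00379) that was not called with thinning. Fgf7, a growth factor for epithelia, had 8.33 and 8.36 CPM in members and 59.5 and 46.0 in Ltbp2-Comp fibroblasts, a log2 difference of -2.65. Kera-Thbs4 fibroblasts had 6.22 and 10.3 CPM of Fgf7, and no difference of the members from them was called.

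Retinoid genes had 3 higher and 3 lower of 18 tested. Aldh1a1, an enzyme that makes retinoic acid, had 118 and 155 CPM in members and 24.3 to 63.5 elsewhere, so the groups did not overlap. Rarb, a retinoic acid receptor, had 6.66 and 5.85 CPM against 11.8 to 46.3. Glaucoma and refractive locus genes had 3 higher and 5 lower of 27. Myoc (myocilin), a glaucoma gene of the outflow tissue, had 1389 and 1378 CPM in members, 1067 and 972 in Kera-Thbs4 and 1003 and 967 in Ltbp2-Comp fibroblasts, and was higher than the mean of the others by 2.1 (SE 0.299, adjusted p = 0.00206). Cyp1b1, a gene of congenital glaucoma, was lower, with 50.4 and 25.5 CPM against 39.6 to 430.4. Regional transcription factors were lower in 14 and higher in 3 of 53. Meox1, a mesoderm homeobox factor, had 120.4 and 81.9 CPM in members and 6.23 to 77.3 elsewhere, a log2 difference of 2.08 (SE 0.108, adjusted p = 6.39e-09). Nr2f1, a nuclear receptor, had 1.25 and 3.34 CPM against 7.11 to 216 and was lower than in each other subset. Foxf1 and Osr1 gave 0 to 1 UMIs in a library of members. Integrin and adhesion genes had 5 higher and 6 lower of 30, with Tnc (tenascin C) at 159 and 262 CPM in members and 145 and 192 in Ltbp2-Comp fibroblasts.

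Cytokine and chemokine transcripts were low in the members, with 0 higher and 11 lower of 19 tested and a median log2 difference of -2.32. At an unadjusted p under 0.05 edgeR gave 2 higher and 14 lower, and DESeq2 called 0 higher and 12 lower. Against Ltbp2-Comp fibroblasts 8 of the 19 were lower. The mean of the others includes the Cxcl5-Csf3 fibroblasts, which were selected on the cytokine genes Cxcl5, Csf3 and Il11. The gate also kept the members' sum for these genes below that for their own. How far this selection shaped the cytokine counts was not tested. Ccl2, which attracts monocytes, had 77.9 and 75.2 CPM in members and 209.7 to 4033 elsewhere, a log2 difference of -3.47 (SE 0.242, adjusted p = 1.22e-05). Il6 had 12.9 and 7.94 CPM against 25.8 to 391, a log2 difference of -3.56 (SE 0.296, adjusted p = 1.71e-05). Ptgs2, the inducible cyclooxygenase, had 166 and 263 CPM against 520.4 to 2194, a log2 difference of -2.32 (SE 0.111, adjusted p = 5.25e-09). For these 3 genes both libraries of members lay below all other sums. Ccl11 (12.5 and 2.51 CPM) and Cxcl10 (2.92 and 23.4 CPM) were lower than the mean of the others as well, with wider gaps between the libraries. By edgeR, Ccl11 was not called against Ltbp2-Comp (adjusted p = 0.442) or Kera-Thbs4 fibroblasts (adjusted p = 0.247). Cxcl10 was not called against Kera-Thbs4 fibroblasts (edgeR adjusted p = 0.0819). Complement genes had 2 higher and 2 lower of 17, and C2 had 155 and 127 CPM in members and 20 to 58.3 elsewhere.

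Some of the 66 genes lower than in each other subset are given here as examples, chosen after their values were seen. Irgm1, an immunity-related GTPase, had 55.8 and 70.6 CPM in members and 138 to 713 elsewhere, a log2 difference of -2.26 (SE 0.173, adjusted p = 2.36e-06). Rtp4 had 21.2 and 19.6 CPM against 44.6 to 477, and for both genes the members lay below all other sums. Genes of the Irg family are similar in sequence, so the count of Irgm1 is less certain. Kitl (stem cell factor) was another of the 66, with 30.0 and 58.5 CPM against 52.4 to 834.

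Immediate early and stress genes were higher in 7 and lower in 1 of 19 tested. Fos had 2965 and 2557 CPM in members and 258 to 2265 elsewhere, a log2 difference of 1.70 (SE 0.232, adjusted p = 0.00138). Fosb had 2161 and 2415 CPM against 500.3 to 1731. Hspa1a, a heat shock chaperone, had 1513 and 1287 CPM against 103 to 695, although its near-identical copy Hspa1b makes the division of reads between them uncertain. Junb went the other way, with 678 and 565 CPM and a log2 difference of -1.28 (SE 0.144, adjusted p = 7.56e-05). These genes are known to respond to tissue digestion, and their part in the other differences was not tested. Lubrication and progenitor genes had 2 higher and 3 lower of 11, and glycolysis and hypoxia genes 1 higher and 3 lower of 18. The lower ones of the latter list included Hk2 (hexokinase 2), with 299.9 and 165 CPM in members and 696 and 383 in Ltbp2-Comp fibroblasts.

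**Figure D5:**
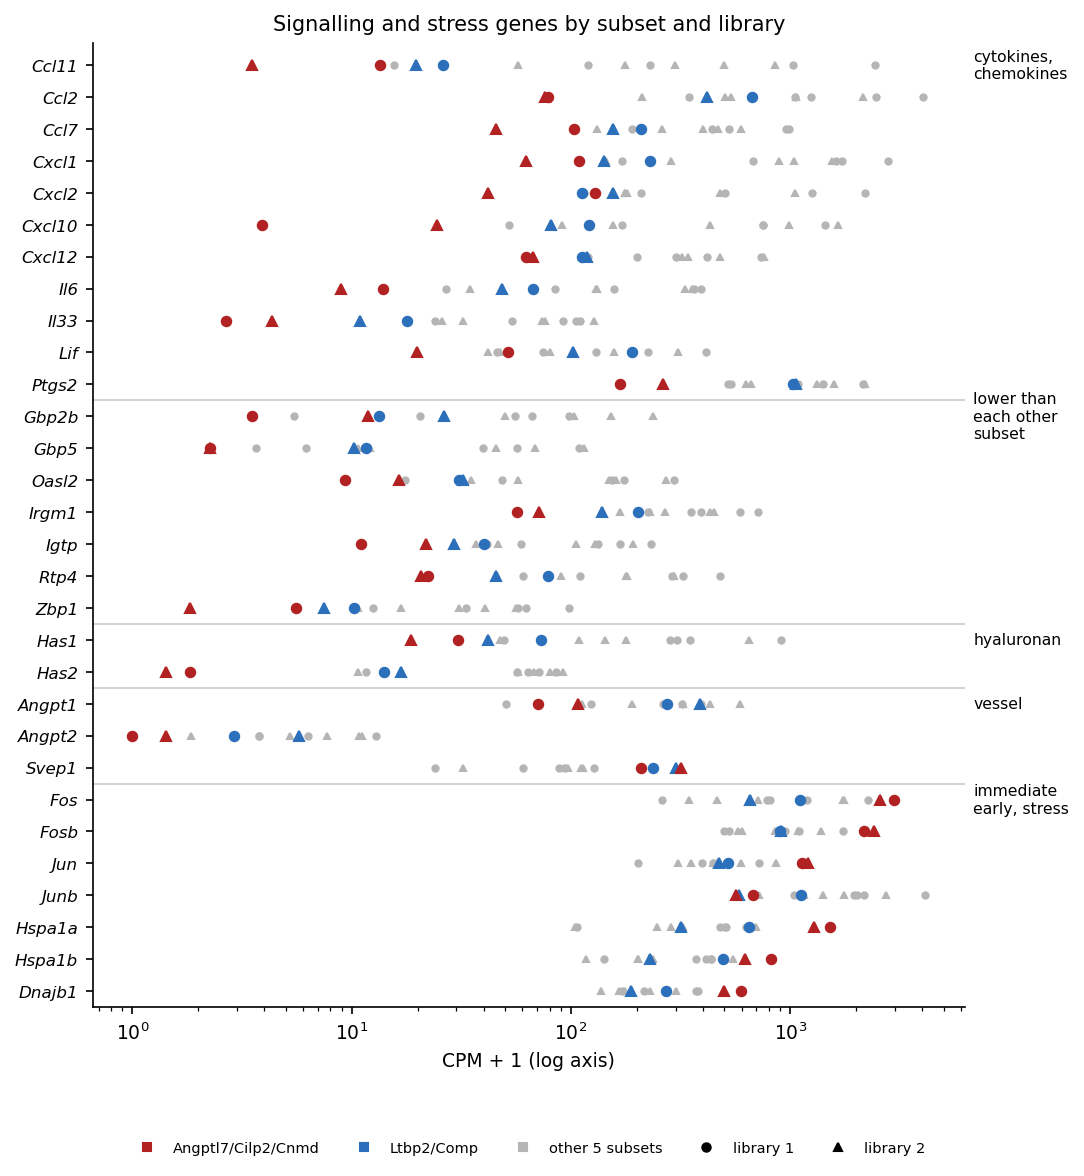
CPM + 1 on a log axis for cytokine, hyaluronan, vessel and immediate early genes and 7 of the genes lower than in each other subset, drawn as in the plot of matrix genes. Ccl2 (77.9 and 75.2 CPM) and Has2 (0.833 and 0.418 CPM) in the members lie to the left of all other sums, and Fosb (2161 and 2415 CPM) to the right.

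The genes named here had the 10 largest positive differences from the mean of the other subsets among genes at 20 CPM or more, with predicted and Rik genes left unnamed. Ooep, known as an oocyte protein, had 101 and 112 CPM in members, 34.6 and 28.2 in Ltbp2-Comp fibroblasts and 24.4 and 15.2 in Kera-Thbs4 fibroblasts, and led the order at 4.30 (SE 0.169, adjusted p = 2.22e-09). Scg2 (secretogranin II, a precursor of secreted peptides) had 131 and 503 CPM against 0.167 to 155, with a wide gap between the libraries. Car3, a carbonic anhydrase, had 227 and 262 CPM in members and 142 and 116 in Ltbp2-Comp fibroblasts. Pcolce2, an enhancer of procollagen processing, had 468 and 602 CPM against 7.37 to 328, a log2 difference of 3.38 (SE 0.0835, adjusted p = 5.14e-12). Kcnh5, a potassium channel, Tspan8, a tetraspanin, Myh2, a muscle myosin, and Egfl6, a secreted EGF-like protein, completed this order with Mmp3 and Matn4. Of these, Ooep, Scg2, Kcnh5, Myh2, Egfl6, Pcolce2 and Matn4 were also higher than in Ltbp2-Comp fibroblasts. The call of Scg2 there was lost under 7 alternatives. Egfl6 had 25.0 and 63.5 CPM in members and 90.2 and 98.4 in Kera-Thbs4 fibroblasts, and was lower than in the latter at a log2 difference of -1.15 (adjusted p = 0.0139).

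Relative to the Ltbp2-Comp fibroblasts, the leading higher genes at 20 CPM or more were Sfrp4, Smoc2, Sema3a, Gas2 and Osr2. Smoc2, a calcium-binding matrix protein, had 152 and 199.7 CPM in members and 22.5 and 26.0 in Ltbp2-Comp fibroblasts, a log2 difference of 2.85 (SE 0.306, adjusted p = 5.16e-04). It was also high in Pi16-Dpt fibroblasts (122 and 215 CPM). Osr2 was higher in Pi16-Dpt fibroblasts (69.8 and 71.3 CPM) than in members (23.7 and 16.3 CPM). Gas2, a protein of the actin cytoskeleton, had 30.4 and 39.3 CPM in members and 70.7 and 82.9 in Kera-Thbs4 fibroblasts, and was lower than in the latter at a log2 difference of -1.14 (adjusted p = 4.06e-04). At the same minimum, the leading lower genes relative to the Ltbp2-Comp fibroblasts were Elobl, Avpr1a, Rgs5, Esm1 and Notch3. The call of Elobl was lost under 3 alternatives and that of Esm1 without the replicate block. Rgs5, a regulator of G protein signalling known from pericytes, had 45.8 and 62.3 CPM in members and 596 and 682 in Ltbp2-Comp fibroblasts, a log2 difference of -3.58 (SE 0.176, adjusted p = 3.67e-07). Pericyte markers, of which Rgs5 is one, summed to 179 and 177 CPM in members, below every other subset of the same library, and their part in this difference was not tested. Avpr1a, a vasopressin receptor, had 3.75 and 1.67 CPM against 38.2 and 31.7.

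Some of the 71 genes higher than in each other subset are likewise examples chosen after their values were seen. Cpxm1, a carboxypeptidase-like protein, had 1199 and 1249.7 CPM in members and 181 to 565 elsewhere. Olfml3, a secreted olfactomedin-like protein, had 819.7 and 809.7 CPM against 75.5 to 492. For both, the members lay above all other sums. Gpx3, the secreted glutathione peroxidase, had 347 and 291 CPM against 16.9 to 105, a log2 difference of 2.84 (SE 0.216, adjusted p = 3.99e-05). Cdkn1c, a cell cycle inhibitor, had 1538 and 1261 CPM against 314 to 685.

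Members were also split by the gene that led their sum, which uses the counts that selected them, and the 30 gate genes were not tested. Angptl7 led in 59 and 66 members, Cilp2 in 114 and 102 and Cnmd in 28 and 23, and 5 and 3 were tied. Between Angptl7-led and Cilp2-led cells, 5 genes were higher (0.0406% of 12325 tested by edgeR) and 13 lower (0.105%), while 1341 had an unadjusted p under 0.05. The higher genes were Nupr1, Dpp4, C1qtnf7, Gask1b and Dync1i2. Nupr1, a stress-response factor, had 5615 and 1976 CPM in Angptl7-led and 1736 and 1199 in Cilp2-led cells, a log2 difference of 1.20 (SE 0.217, adjusted p = 0.0486). Among the lower genes Igf2, a growth factor, had 22.8 and 55.4 CPM in Angptl7-led and 83.6 and 129 in Cilp2-led cells, a log2 difference of -1.5 (SE 0.210, adjusted p = 0.00625). Matn4 had 621 and 655 CPM in Angptl7-led and 711 and 864 in Cilp2-led cells and was not called. Between Cnmd-led and Cilp2-led cells edgeR called 0 genes higher (0.00%) and 2 lower (0.0162%), Ptgs2 and Serpine2, and 1133 genes had an unadjusted p under 0.05. Ptgs2 had 47.2 and 105 CPM in Cnmd-led and 183 and 279 in Cilp2-led cells, a log2 difference of -1.62 (SE 0.210, adjusted p = 0.00577). The smallest group held 23 cells, and genes that were not called are not shown to be alike.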

How the data were processed

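Droplet single-cell RNA was measured in 2 libraries of wild-type choroid-RPE tissue, loaded at 10000 cells each. The matrices the authors deposited give a raw UMI count for each of 32285 genes in every barcode. Cell Ranger made them on mm10. Its version is 4 by the file headers, whereas the submitters' processing notes list 2.1.1, and which is right was not resolved. The sources used here do not give the annotation release.

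Cells were gated as the report states. Counts were summed per library and subset (14 sums, each from at least 20 cells) and entered 1 fit in edgeR 4.0.16, under R 4.3.3 with limma 3.58.1, by glmQLFit and glmQLFTest, with TMM scaling, filterByExpr, the robust option and the library as a block, because every subset of a library comes from the same pool of mice. P-values were adjusted by Benjamini-Hochberg over all 12305 genes tested. CPM values use the TMM library sizes. Neighbours and clusters used scanpy 1.11.5 and leidenalg 0.10.2 under Python 3.11.15, on 2000 variable genes and 30 components at a resolution of 1. The fit was tested on simulated data for the comparison with the mean of the other subsets: of 200 genes changed by 2 on the log2 scale, 97.5% were recovered, with 4 false calls among 11903 genes. Apart from these changes, the simulated sums had the same profile in all subsets, no library effect and the same dispersion for all genes. Only genes above a minimum level were changed. The rates therefore hold for those settings and were not measured for the observed sums.

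The members, the gene lists and the tests were chosen with earlier results of these data known. Named genes were the markers and gate genes, the 3 largest differences of each list, the 10 highest and 10 lowest genes at 20 CPM or more, the 5 highest and lowest against the most similar subset, and all angiopoietin, angiopoietin-like and chondrocyte genes. Predicted (Gm and Rik), ribosomal, mitochondrial and haemoglobin genes were counted but not named. Other genes are named from these lists as examples, or are marked as chosen after their values were seen. Alternatives were other cell and gate minimums, a stricter lead, thinning, removal of doublets or of cells with markers of other types, free RNA subtraction, a pooled reference, other scaling, no count filter, no block, DESeq2 1.42.0 and leaving out each library. Doublets were called with Scrublet and kept in the reported values.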

Additional observations from a re-analysis of the deposited data

How the results depend on the processing

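With the leading sum required to be at least 2 times the next, the members' mean share of fibroblasts fell from 3.96% to 1.95%, and it was 2.99% to 4.93% with 1 library left out. Against the mean of the other subsets, the alternatives gave 613 to 845 genes higher and 633 to 1109 lower. The number of genes tested differed between these fits, from 10938 with thinning to 21665 without the count filter. With cells thinned before gating, 198 genes were higher and 229 lower than in Ltbp2-Comp fibroblasts, and 36 were higher and 29 lower than in each other subset. Without the replicate block, that is, without pairing subsets by library, these counts were 134 and 153 and 25 and 18, and against Kera-Thbs4 fibroblasts 129 and 170. The cause was not tested. No call of a named gene reversed its direction under an alternative, and changes of sign in genes that were not called were not counted. Of 99 named genes tested against the mean of the other subsets, the call was lost for 14 with thinning (Nts, Il33, Sfrp4, Gas2, Osr2, Cytl1, Fgfr3, Pth1r, Adamts8, Angptl6, Angptl1, Angpt2, Pgf and Nt5e), for 10 with the stricter lead (Ccl11, Col10a1, Nts, Adamts15, Adamts8, Angptl6, Angptl2, Pgf, Wnt6 and Acan) and for 9 against all other fibroblasts pooled (Cxcl10, Pth1r, Angptl6, Angptl1, Svep1, Pgf, Col2a1, Acan and Col11a2). Against Ltbp2-Comp fibroblasts the call was lost for 20 with thinning (among them Scg2, Has1, Has2, Fos, Fosb, Hspa1a, Igfbp6, Rspo3 and Hk2), 12 with the stricter lead and 16 without the block (among them Col6a3, Igfbp6 and Hspa1a). With 1 library left, gene counts could not be tested. Differences of log2(CPM + 1) in the library left were set beside the fitted log2 differences of both libraries. They lay apart by more than the spread between libraries for 43 (without library 1) and 54 (without library 2) of the 99 genes against the mean of the others. Against Ltbp2-Comp fibroblasts this held for 33 and 33. Because the measures differ in kind, these counts cannot show how far a result depends on 1 library. Thinned or stricter gates hold fewer cells per sum.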
